A study of Mus musculus with 9 samples.

Results

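The cytosolic ribosomal protein genes were followed in Argonaute (AGO) CLIP-seq of mouse liver, a method that reads the RNA stretches fixed by ultraviolet light to AGO, which carries microRNAs to their targets. Members were all protein-coding genes of the peak table whose names begin with Rpl or Rps and a digit, without the Rps6k kinases. This rule, which uses names and no measured value, found 84 genes of 13756 named genes in all, and 239 peaks of 92645. Of the 84 genes, 49 have large-subunit names (Rpl) and 35 have small-subunit names (Rps), and 8 carry pseudogene-type names although the table annotates them as protein-coding. The mice were 4 miR-122 knockouts (KO), 1 female and 3 males, set against 5 floxed littermates labelled WT, 3 females and 2 males. All 9 mice were 6 weeks old, and the labels give a different mouse for each library. The labels do not name the driver of the deletion, nor do they say whether the floxed controls carried a recombinase.

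Ribosomal proteins assemble with ribosomal RNA into the large and the small subunit of the ribosome, and their mRNAs are among the most abundant in most cells. Many of these mRNAs begin with a short pyrimidine run, the 5′ TOP motif, through which their translation follows nutrient signals, and many ribosomal protein genes carry small nucleolar RNAs (snoRNAs) in their introns. MicroRNAs bound to AGO usually recognise mRNAs through bases 2 to 8 of the microRNA, the seed, and sites in the 3′ UTR are the best known. miR-122 is the predominant microRNA of hepatocytes.

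The microRNA families whose 7mer or 8mer seed matches lay in the most member peaks are shown first, since they describe which microRNAs could pair with these peaks. The mature sequences are from RefSeq (GRCm38.p6), are written 5′ to 3′, and have the seed in capitals. Neighbouring lines of 1 family (miR-15a and miR-16, miR-29a and miR-29b, miR-103 and miR-107, miR-125a and miR-125b) share a seed.
mmu-miR-15a-5p: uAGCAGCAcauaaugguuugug
mmu-miR-16-5p: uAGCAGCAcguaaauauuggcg
mmu-miR-29a-3p: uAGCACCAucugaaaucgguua
mmu-miR-29b-3p: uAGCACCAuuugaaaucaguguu
mmu-miR-103-3p: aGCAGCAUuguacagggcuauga
mmu-miR-107-3p: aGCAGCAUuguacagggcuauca
mmu-miR-125a-5p: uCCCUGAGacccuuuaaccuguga
mmu-miR-125b-5p: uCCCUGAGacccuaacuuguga
mmu-miR-22-3p: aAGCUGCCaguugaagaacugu
mmu-miR-23a-3p: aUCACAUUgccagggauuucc
A further set is shown because a match to it lies in a peak that differed between KO and WT livers, as given with the peaks.
mmu-miR-21a-5p: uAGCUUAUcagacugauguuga
mmu-miR-30a-5p: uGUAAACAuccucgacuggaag
mmu-miR-194-5p: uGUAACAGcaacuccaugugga
Matches of the miR-15/16 family lay in 10 member peaks (4.18%, against 6.37% of all peaks). The miR-29 family also had 10 (4.18% against 3.90%), and so did miR-22 (4.18% against 3.55%). The family of miR-103 and miR-107 had 7 member peaks (2.93% against 3.76%), while the miR-23 and the miR-125 families had 6 each (2.51%, against 2.41% and 1.82% of all peaks). No family was thus matched in more than 4.18% of member peaks.

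Library totals over all peaks ran from 612479 to 1070610 counts in KO livers and from 445912 to 1170130 in WT livers, and the member genes together held 854 to 2176 counts in a KO library and 848 to 2124 in a WT library. All 8 hepatocyte markers looked for were detected. Their summed level was 14355 to 17864 CPM in KO livers, against 24115 to 32781 CPM in WT livers, with 6 of 8 tested lower and 1 higher. Marker CPM here are counts relative to the gene total of the library, scaled with edgeR's TMM factors. They are not relative to its total over all peaks. All 10 neuron markers looked for were higher in KO livers, at a summed 1914 to 10255 CPM against 47.6 to 63.7 CPM in WT livers, and 3 of them (Rbfox1, Syn1 and Gria2) had no count in any WT library. The highest neuron sum, 10255 CPM, was that of KO replicate 4, whose next highest fellow had 2422 CPM. Stellate cell markers summed to 1292 to 1776 CPM in KO livers and 589.95 to 744 CPM in WT livers, with 3 of 6 tested higher. Endothelial markers summed to 316 to 551 CPM in KO livers, lowest in KO replicate 4, and to 517 to 598 CPM in WT livers. Of these, 0 of 5 tested were lower or higher. The 3 of 6 cholangiocyte markers with peaks summed to 76.5 to 112 CPM in KO livers and 14.9 to 44.3 CPM in WT livers, and macrophage markers to 378 to 579 CPM in KO livers and 314 to 383 CPM in WT livers, with 3 of 7 tested higher. Red cell markers summed to 12365 to 24999 CPM in KO livers, again highest in KO replicate 4, and to 9426 to 15041 CPM in WT livers. The part of these cell types in the results that follow was not tested. In whole liver, fewer cells of a type and less bound RNA per cell cannot be told apart, nor can a change in binding be told apart from a change in the amount of an mRNA.

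Most member peaks lay in coding sequence. Of the 239, 147 were annotated to CDS, 48 to the 3′ UTR, 24 to introns, 12 to the 5′ UTR, 7 to the region downstream of a gene and 1 to a SINE repeat. The number of peaks per gene ran up to 12, in Rpl4, a large-subunit protein near the exit tunnel, and 18 genes had 1 peak. By position in GRCm38, 226 peaks lay in the RefSeq gene of the same symbol. The 13 others included all 8 peaks named Rpl24, which lay over Zbtb11, 2 of the peaks named Rpl13a, which lay over Flt3l, and both peaks named Rps4y2, which lay over Rps4l and Tmtc1. Values under those 3 names are therefore uncertain.

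The intron and downstream peaks were mostly snoRNA peaks. Of the 31 such peaks, 27 overlapped a RefSeq snoRNA, as did 1 CDS peak of Rpl3, so that 28 peaks in 18 genes held 3077 of the 14504 member counts. Among intron peaks the share over a snoRNA was 83.3% for ribosomal protein genes and 0.306% for other protein-coding genes. Among downstream peaks it was 100% (7 of 7), against 1.69%. The fullest was in an intron of Rps12, a small-subunit protein, at chr10:23786493-23786562, over a snoRNA that RefSeq lists as LOC115487513. It held 75, 123, 162 and 47 counts in KO livers, against 50, 33, 82, 73 and 44 in WT livers. Others lay over Snord68 in Rpl13 and over 4 snoRNAs in the introns of Rpl7a.

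Per kilobase of peak, the highest WT level was that of Rpl6, a large-subunit protein, at 1513 scaled CPM per kilobase, against 97.3 in KO livers. Rps27l, a paralogue of Rps27 that p53 induces, came next in WT livers, with 1075 in KO and 1239 in WT livers. Rps25 (114 in KO and 627 in WT livers), Rps12 (606 in KO and 419.7 in WT livers) and Rpl17 (291 in KO and 347 in WT livers) were also among the highest. Of these 5 genes, Rpl17 and Rps12 held snoRNA peaks alone. The Rps27l level rested on 1 CDS peak at chr9:66946813-66946882, with a match to miR-194, which had 138 ± 14.4 CPM in KO and 145 ± 18.6 CPM in WT livers (SD, n = 4 and 5).

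The first comparison asked which ribosomal protein genes lost or gained AGO-bound reads in KO livers. Genes encoding Rpl6, Rps25 and Rpl35a were among those lower in KO livers, with log2 changes of -2.40 to -3.61, and Rpl15, Rpl41, Rps29, Rpl7l1 and Rpl7a were higher. Counts were summed per gene and tested with edgeR's quasi-likelihood test, with sex as a term, over 8837 genes, at an adjusted p of 0.05 after Benjamini-Hochberg. CPM of genes are scaled with edgeR's TMM factors, and log2 changes are KO over WT. Of the 84 genes, 44 had enough reads to be tested (66 to 1201 counts in all, median 220), and the 40 others had 5 to 82 counts (median 33). Among the 44, 9 passed the threshold in either direction, where 45% of all genes tested did. Of these, 4 were lower in KO livers, where 23.8% of all genes tested were, and 5 were higher, where 21.3% of all genes tested were. The number of higher members was 11 without KO replicate 4, 3 without any 1 of KO replicates 1, 2 and 3 and WT replicates 1, 2, 4 and 5, and 2 with scaling factors from genes without a miR-122 match. KO and WT libraries did not overlap in 8 of the 44, against 40.3% of all genes tested. The median log2 change of the 44 was 0.28, and that of all genes tested was 0.05. With scaling factors taken from genes without a miR-122 match, the median of all genes moved to -0.31 and that of the members to -0.08, which shifts every gene alike. Without the peaks that hold such a match, the medians were 0.03 for 40 members tested and 0.04 for all genes.

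Rpl6 had 26.2, 9.18, 8.36 and 10.7 CPM in KO livers, against 177, 406, 202, 144 and 129.8 CPM in WT livers. The groups did not overlap, and WT replicate 2 was far above the other WT livers, as KO replicate 1 was above the other KO livers. The log2 change was -3.61 ± 0.32 (SE), with an edgeR adjusted p of 4.24e-06.

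Rps25, a small-subunit protein needed for translation from some viral internal ribosome entry sites, had 16.1, 13.3, 19.5 and 15.05 CPM in KO livers. In WT livers it had 65.4, 121.999, 73.3, 57.0 and 121.5 CPM. The KO livers lay close together and below every WT liver, and the log2 change was -2.42 ± 0.33, with an edgeR adjusted p of 9.32e-05. Rpl35a, a large-subunit protein mutated in some human patients with Diamond-Blackfan anaemia, had 3.03, 4.08, 2.79 and 0 CPM in KO livers, against 17.5, 39.8, 6.93, 14.2 and 13.1 CPM in WT livers. These are low levels. In a KO library 3 counts are worth 2.80 to 4.90 CPM of the total over all peaks, a scale without the TMM factors. Its log2 change was -2.40 ± 0.64, with an edgeR adjusted p of 0.00917, and without KO replicate 1 the adjusted p was 0.0578.

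**Figure D1:**
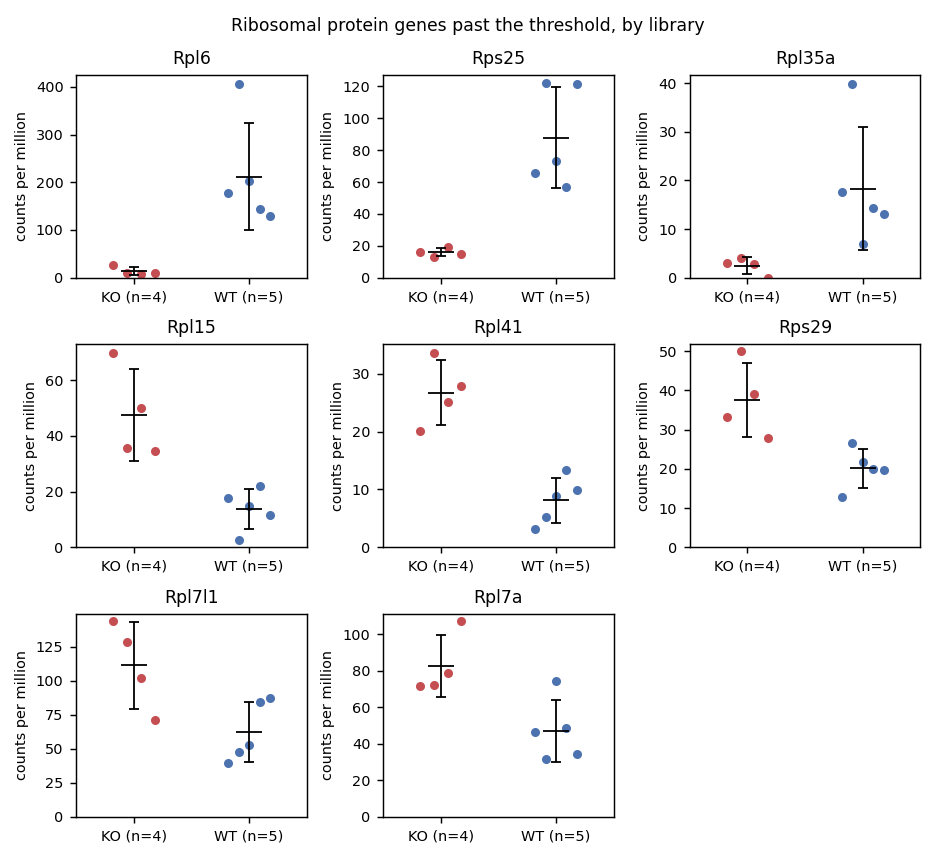
AGO-bound CPM, scaled by TMM factors, of 8 ribosomal protein genes past the threshold, with 1 point per library, KO livers on the left and WT livers on the right; black bars are the mean and the SD. The 3 that were lower in KO livers (Rpl6, Rps25, Rpl35a) and Rpl15, Rpl41 and Rps29 show no overlap between the groups, while Rpl7l1 and Rpl7a overlap.

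Among the genes that were higher in KO livers, Rpl15, a large-subunit protein, had 69.6, 35.7, 50.1 and 34.4 CPM in KO livers, against 17.5, 2.65, 14.9, 21.8 and 11.5 CPM in WT livers. Every KO liver was above every WT liver, and the log2 change was 1.73 ± 0.38, with an edgeR adjusted p of 0.00271. Without KO replicate 1, the highest KO liver, the adjusted p was 0.0767. Rpl41, a very short basic peptide at the interface of the subunits, had 20.2, 33.6, 25.1 and 27.9 CPM in KO livers, against 3.19, 5.30, 8.92, 13.3 and 9.86 CPM in WT livers. The groups did not overlap, and the log2 change was 1.42 ± 0.34, with an edgeR adjusted p of 0.00492.

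Rps29, a zinc-binding small-subunit protein, had 33.3, 49.96, 39.0 and 27.9 CPM in KO livers, against 12.8, 26.5, 21.8, 19.9 and 19.7 CPM in WT livers, with a log2 change of 0.89 ± 0.30 and an edgeR adjusted p of 0.0278. Rpl7l1, a paralogue of the large-subunit gene Rpl7, had 144, 128, 102 and 70.9 CPM in KO livers, against 39.9, 47.7, 52.5, 84.5 and 87.1 CPM in WT livers, with a log2 change of 0.80 ± 0.27 and an edgeR adjusted p of 0.0304. Rpl7a, a large-subunit protein and snoRNA host, had 71.6, 72.4, 78.9 and 107.5 CPM in KO livers, against 46.2, 31.8, 74.3, 48.4 and 34.5 CPM in WT livers, with a log2 change of 0.79 ± 0.28 and an edgeR adjusted p of 0.0383. Its 4 peaks over snoRNAs held 249 of its 277 counts in KO livers and 168 of its 188 in WT livers, and without snoRNA peaks it had too few reads to be tested, so that 4 of 36 members tested were then higher. The groups overlapped for Rpl7l1, through its lowest KO liver, and for Rpl7a, through its highest WT liver, WT replicate 3. These 3 calls were lost with scaling factors from the genes that lack a miR-122 match and without the peaks that hold such a match. The Rps29 call was also lost without any 1 of KO replicates 1, 2 and 3 and WT replicates 4 and 5, with a highest adjusted p of 0.17 over all alternatives tried. The Rpl7l1 call was also lost without any 1 of KO replicates 1 and 2 and WT replicates 1, 2 and 3, and with 3′ UTR peaks alone (highest adjusted p = 0.50 by edgeR). The Rpl7a call was also lost without any 1 of KO replicate 3 and WT replicates 1, 2, 4 and 5 (highest adjusted p = 0.26 by edgeR).

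**Figure D2:**
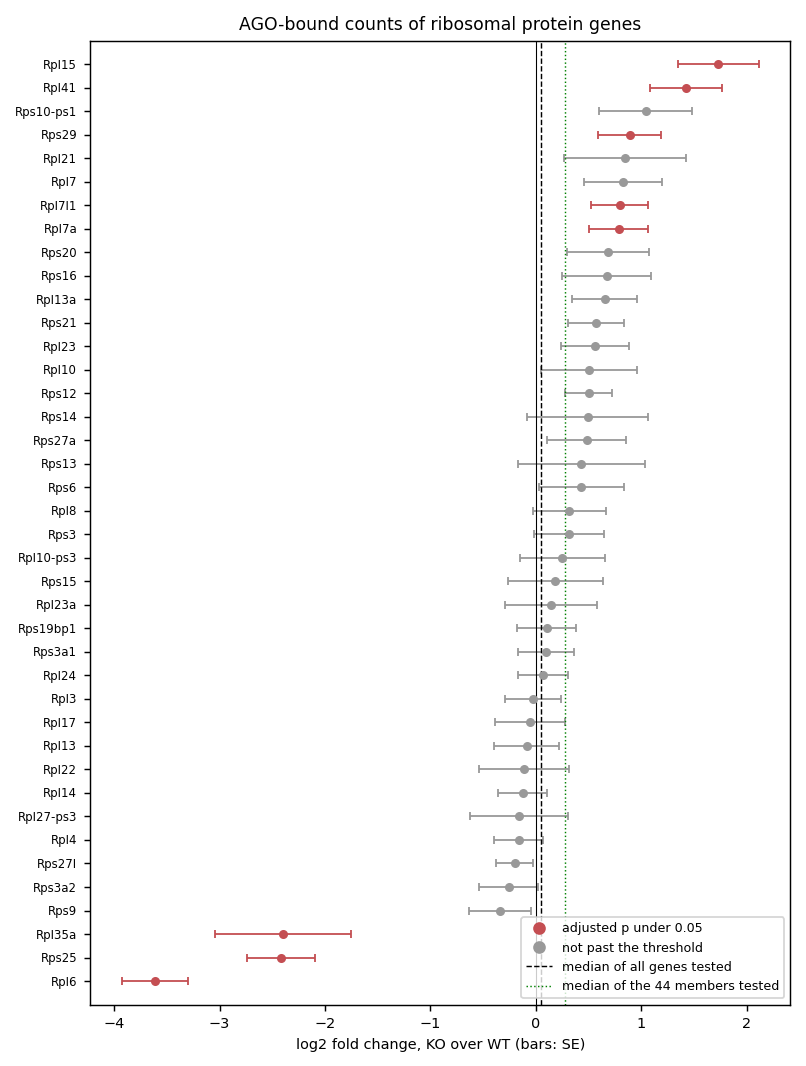
Log2 change, KO over WT, of 40 of the 44 ribosomal protein genes with enough reads to be tested, with bars of 1 SE; red points have an adjusted p under 0.05 and grey points do not. The 3 genes at the bottom stand at -2.40 to -3.61, most others lie between -0.34 and 1.04, and the medians of the 44 members (0.28) and of all genes tested (0.05) are drawn as dotted and dashed lines.

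By subunit, 23 large-subunit names were tested, of which 3 were lower and 4 higher in KO livers, with a median log2 change of 0.14. Of 21 small-subunit names tested, 1 was lower and 1 was higher, with a median of 0.32. Among all genes tested, 23.8% were lower and 21.3% higher. Ribosomal constituents whose names fall outside the rule were set beside them. The stalk protein gene Rplp0 had 48.4, 33.6, 39.0 and 38.7 CPM in KO livers, against 65.4, 74.3, 76.3, 75.96 and 96.9 CPM in WT livers, with no overlap, a log2 change of -0.96 ± 0.21 and an edgeR adjusted p of 0.00274. Fau, whose product is the precursor of a small-subunit protein fused to a ubiquitin-like domain, averaged 17.7 ± 6.52 CPM in KO livers and 56.9 ± 19.4 CPM in WT livers, with a log2 change of -1.53 ± 0.29 and an edgeR adjusted p of 0.00101. Without peaks that hold a miR-122 match, its adjusted p was 0.173. The 3 others tested, Rplp1, Rpsa and Gnb2l1 (the Rack1 scaffold), had log2 changes of -0.43, -0.55 and -0.08 and adjusted p of 0.25, 0.16 and 0.80.

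Some members with known roles beyond translation are given here whatever their result, and those tested did not pass the threshold. Rps6, the substrate of the S6 kinases, averaged 20.1 ± 7.41 CPM in KO and 15.8 ± 7.59 CPM in WT livers (log2 change 0.43, adjusted p = 0.41 by edgeR). Rpl5 and Rpl11, which bind Mdm2 with the 5S RNA, had too few reads to be tested, as did Rps19, which like Rpl35a is mutated in Diamond-Blackfan anaemia in humans, and Rpl26. Rpl13a, a member of the GAIT translation control complex in human cells, had a log2 change of 0.65 with an adjusted p of 0.10 by edgeR. In a separate fit of CDS peaks alone, scaled on those peaks, it had 0.99 with an edgeR adjusted p of 0.00937. Its CDS row in the fit of all gene parts had 0.77 and did not pass (adjusted p = 0.0548 by edgeR). A CDS peak under this name lay over Flt3l. Rps27a, made as a fusion with ubiquitin, had 0.48 with an adjusted p of 0.32. Rps3, Rps14, Rpl10, Rpl3 and Rpl22 had log2 changes of 0.32, 0.49, 0.50, -0.03 and -0.11, with adjusted p from 0.40 to 0.94. Among names that are not core subunits, Rps27l had a log2 change of -0.20 (adjusted p = 0.38 by edgeR) and Rps19bp1, a binding partner of Rps19, had 0.10 (adjusted p = 0.79 by edgeR). Rpl22l1, Rpl36al and several pseudogene-type names had too few reads to be tested.

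Other gene lists of the translation machinery differed in their counts. Of 39 mitochondrial ribosomal protein genes tested, 18 were lower and 1 was higher in KO livers, with a median log2 change of -0.65. Of 26 ribosome biogenesis genes tested, such as the rRNA methyltransferase gene Fbl, 7 were lower and 0 higher, with a median of -0.25. Of 18 other 5′ TOP mRNAs tested, which encode elongation factors and other translation proteins, 4 were lower and 3 higher, with a median of 0.04. These counts stand beside the 23.8% and 21.3% of all genes tested, and the differences between the lists were not tested.

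The second comparison asked where along the mRNA the AGO-bound reads lay. In both genotypes, reads of ribosomal protein genes lay mainly in CDS, more so than those of other genes, and in KO livers the CDS share was smaller and the 3′ UTR share larger. Over the 3 mRNA parts, CDS held 64.7%, 68.4%, 66.3% and 67.9% of member counts in KO livers, against 81.2%, 85.1%, 80.2%, 77.9% and 80.2% in WT livers. The 3′ UTR held 32.5%, 28.2%, 31.8% and 29.05% in KO livers, against 16.3%, 14.003%, 17.0%, 20.3% and 17.4% in WT livers. No KO liver overlapped a WT liver in either share. The CDS share was lower by 14.1 percentage points in KO livers and the 3′ UTR share higher by 13.3 points, each with an adjusted p of 0.0119 by a two-sided exact permutation test over all splits into 4 and 5 libraries, whose smallest p is 0.00794. Within sex, each had an exact p of 0.025, the smallest the 40 arrangements allow. The 5′ UTR share was 2.81 ± 0.593% in KO and 2.06 ± 0.756% in WT livers, and did not pass the same exact test (adjusted p = 0.135).

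Other protein-coding genes moved in the same direction for CDS and 3′ UTR. Their CDS share was 40.4 ± 3.04% in KO and 51.8 ± 1.33% in WT livers, and their 3′ UTR share was 52.8 ± 2.99% in KO and 38.3 ± 1.89% in WT livers. Unlike that of the members, their 5′ UTR share was lower in KO livers, at 6.82 ± 0.24% against 9.95 ± 0.81% in WT livers (exact permutation p = 0.00794). Within each library the members' CDS share was above that of other genes, on average by 27.9 points, in 9 of 9 libraries. Their 3′ UTR share was below it by 21.8 points, and their 5′ UTR share by 6.17 points, also in 9 of 9 libraries. Each of these differences had an exact two-sided sign-flip p of 0.00391, the smallest that 9 libraries can give. Members minus other genes, the 5′ UTR difference averaged -4.01 points in KO and -7.90 points in WT livers, a shift between genotypes that was not tested. The shares were not corrected for the lengths of the mRNA parts, and the role of length in these differences was not tested.

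The log2 ratio of CDS to 3′ UTR counts combines both shares in 1 value per library. For ribosomal protein genes it was 1.14 ± 0.13 in KO and 2.26 ± 0.24 in WT livers, and the difference of -1.12 had an exact permutation p of 0.00794. For other genes the ratio was -0.39 ± 0.19 in KO and 0.44 ± 0.11 in WT livers, a difference of -0.83. The members' difference exceeded that of other genes by -0.29, which did not pass the exact permutation test (p = 0.0794). Without KO replicate 4 the excess was -0.41 (exact permutation p = 0.0179), and without peaks that hold a miR-122 match it was 0.01 (exact permutation p = 0.968). KO replicate 4 is the library with the highest neuron marker sum.

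**Figure D3:**
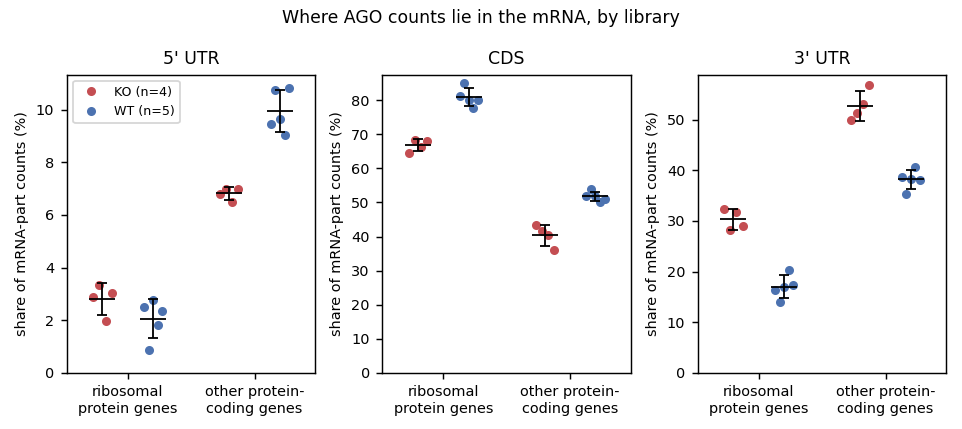
Share of counts, in percent, that lay in 5′ UTR, CDS and 3′ UTR peaks, for ribosomal protein genes and for all other protein-coding genes, with 1 point per library, KO (red) left of WT (blue), and the mean with its SD in black. The KO livers lie below the WT livers for CDS and above them for the 3′ UTR in both sets of genes, and the ribosomal protein CDS shares of 64.7% to 85.1% lie above all those of other genes.

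Of the sums by mRNA part that were tested, that of the 3′ UTR was higher in KO livers. Summed over 48 peaks in 37 genes, 3′ UTR counts were 502.8, 435, 483 and 299 CPM of the library total in KO livers, against 211, 222, 251, 286 and 258 in WT livers, a ratio of 1.75. Every KO liver was above every WT liver (exact permutation p = 0.00794, and 0.0198 adjusted over 10 sums of this kind). The 140 CDS peaks outside snoRNAs and without a miR-122 match summed to 909.8 ± 161 in KO and 855 ± 71.2 in WT livers, with overlapping libraries (adjusted exact p = 0.615). A sum over all 147 CDS peaks was not tested, so this value does not show whether CDS counts as a whole changed. The UTR sums hold all peaks of their part, and no UTR peak of a member holds a miR-122 match. The 12 peaks in the 5′ UTR, in 12 genes, summed to 39.3 ± 10.6 in KO and 29.4 ± 10.4 in WT livers (adjusted exact p = 0.295).

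In single genes, the CDS and 3′ UTR counts were fitted as separate rows, of which 24 CDS, 8 3′ UTR and 0 5′ UTR rows of members had enough reads. Among the CDS rows, 3 were lower (Rpl6 and Rps25 among them), where 29.4% of all CDS rows were, and 1 was higher (Rps29), where 11.3% were. Among the 3′ UTR rows, 0 were lower, where 14.7% of all 3′ UTR rows were, and 5 were higher, where 36.9% were. Among the 5 were Rpl15, Rpl41, Rpl7l1 and Rps21, the last of these named after its values were seen. The median log2 change was 0.18 for the members' CDS rows and -0.16 for those of other genes. It was 0.89 for the members' 3′ UTR rows and 0.49 for those of other genes.

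The third comparison asked which single peaks carried these differences. Fitted with all other peaks, 50 member peaks had enough reads, of which 6 were lower in KO livers, where 26.7% of all peaks tested were, and 6 were higher, where 20.1% were. KO and WT libraries did not overlap in 9 of the 50, against 40.7% of all peaks tested. The CPM of peaks are scaled within the table of peaks and are not set against those of genes. All 6 lower peaks lay in CDS, and of the 6 higher ones 5 lay in the 3′ UTR and 1, that of Rps29, in CDS.

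In Rpl6, the CDS peak at chr5:121206722-121206791 holds a miR-122 6mer match. It had 19.9, 6.30, 6.198 and 10.7 CPM in KO livers, against 149, 341, 168, 121 and 110.7 CPM in WT livers, a log2 change of -3.74 ± 0.35 with an edgeR adjusted p of 4.28e-07. The groups were far apart, and nearly all reads of the gene lay in this peak. In Rpl35a, the CDS peak at chr16:33058659-33058728 holds a match labelled miR-122-5p-B, a class that neither the labels nor the file headers define. It had 2, 0, 1 and 0 counts in KO livers, against 8, 14, 7, 14 and 5 counts in WT livers, too few to be tested as a peak.

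The lower peaks of Rps25 and Rpl14 held no miR-122-5p match in the deposited annotation. In Rps25, the CDS peak at chr9:44408755-44408824, which holds a miR-21 match, had 8.51, 3.60, 8.85 and 6.42 CPM in KO livers, against 46.4, 51.9, 43.1, 36.3 and 78.0 CPM in WT livers. Its log2 change was -2.88 ± 0.38, with an edgeR adjusted p of 1.36e-05 and no overlap. The second Rps25 peak, at chr9:44409976-44410045, averaged 8.25 ± 1.29 CPM in KO and 23.7 ± 17.1 CPM in WT livers, with overlapping libraries (log2 change -1.36 ± 0.52, adjusted p = 0.0423 by edgeR). Rpl14 encodes a large-subunit protein. Its CDS peak at chr9:120572079-120572148, with a match to miR-122-3p, the other strand of the miR-122 hairpin, had 3.78, 1.80, 3.54 and 6.42 CPM in KO livers, against 16.4, 13.5, 24.0, 18.6 and 18.4 CPM in WT livers.

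That Rpl14 peak had a log2 change of -2.34 ± 0.45 with an edgeR adjusted p of 0.000439, while the gene's sum did not pass the test (log2 change -0.12, adjusted p = 0.70). Its fullest peak, at chr9:120574135-120574204 in CDS with a miR-15/16 match, had 49.9 ± 10.5 CPM in KO and 28.7 ± 15.5 CPM in WT livers (adjusted p = 0.127 by edgeR).

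**Figure D4:**
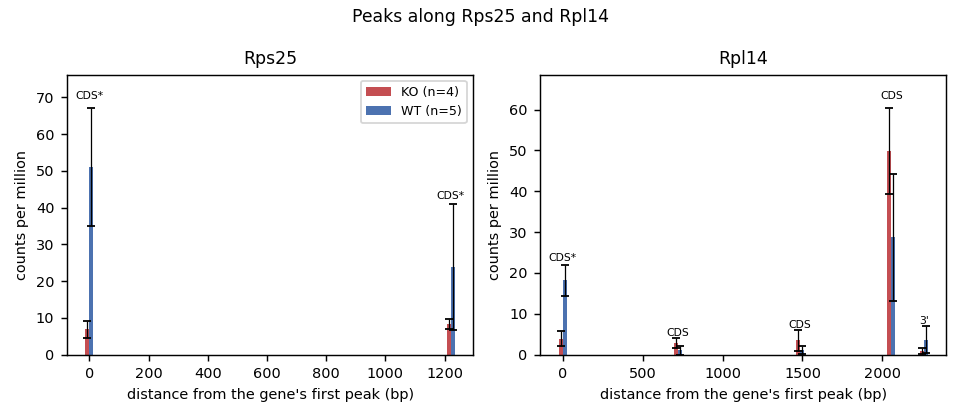
Mean CPM of each peak of Rps25 and Rpl14, KO (red, left bar) and WT (blue, right bar), with SD bars, against the distance in bases from the first peak of the gene in the direction of transcription; CDS and 3′ (for 3′ UTR) give the annotation and a star marks an adjusted p under 0.05. Both Rps25 peaks are lower in KO livers (8.25 in KO against 23.7 in WT livers for the second), while in Rpl14 the fullest peak averages 49.9 in KO against 28.7 in WT livers and did not pass the threshold.

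The higher peaks with the smallest p lay mostly in the 3′ UTR. In Rpl15, the peak at chr14:18268144-18268213, with a miR-30 match, had 55.8, 13.5, 26.6 and 25.7 CPM in KO livers, against 5.46, 2.26, 8.28, 12.9 and 2.84 CPM in WT livers (log2 change 2.15 ± 0.47, adjusted p = 0.00127 by edgeR). KO replicate 1 was highest, and without it the adjusted p was 0.093. In Rpl41, the peak at chr10:128548184-128548314 had 22.3 ± 4.42 CPM in KO and 6.41 ± 3.10 CPM in WT livers, without overlap (log2 change 1.49 ± 0.37, adjusted p = 0.00316 by edgeR). In Rps29, the CDS peak at chr12:69158675-69158744 had 31.4 ± 9.04 CPM in KO and 13.2 ± 3.71 CPM in WT livers, without overlap (log2 change 1.25 ± 0.35, adjusted p = 0.00733 by edgeR, and 0.055 without WT replicate 5). The Rpl7l1 peak at chr17:46775148-46775217, which holds a miR-21 match like the lower Rps25 peak, had 89.97 ± 20.9 CPM in KO and 48.8 ± 16.6 CPM in WT livers (log2 change 0.84 ± 0.28, adjusted p = 0.0202 by edgeR). That call was lost in 6 of 16 alternatives, which were DESeq2, no filter on low counts, factors from peaks without a miR-122 match, and leaving out KO replicate 1, WT replicate 1 or WT replicate 3. The lowest log2 change was 0.34 and the highest adjusted p 0.39, both without KO replicate 1. The Rps21 peak at chr2:180258371-180258440 holds a miR-194 match and had 22.7 ± 4.57 CPM in KO and 10.3 ± 5.28 CPM in WT livers (log2 change 1.04 ± 0.40, adjusted p = 0.041 by edgeR).

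Matches to miR-122 were few in these mRNAs. A miR-122-5p 7mer or 8mer match lay in 2 member peaks, 0.837%, against 6.06% of the peaks of other protein-coding genes. Of the 2, 1 lay in CDS and the other over a snoRNA. A 6mer match lay in 2 peaks (Rpl6 and Rps15) and a miR-122-5p-B match in 3 (Rpl35a and Rps13 among them). Summed over these 7 peaks, CPM of the library total were 104, 75.04, 48.6 and 44.1 in KO livers, against 310.1, 556, 347, 297 and 246 in WT livers, higher in WT by 5.16 times (adjusted exact permutation p = 0.0198). The peak over a snoRNA is part of this sum, so that the ratio is not one of mRNA peaks alone. Nor is the ratio shared evenly by the peaks. The Rpl6 peak held 40 of the 261 counts of the KO libraries and 691 of the 1392 counts of the WT libraries. Counts were low in the Rps13 peak (8 in KO and 14 in WT libraries) and the Rps15 peak (7 and 17). The 205 remaining peaks outside snoRNAs summed to 1386 ± 255 in KO and 1137 ± 91.1 in WT livers, with an adjusted exact p of 0.172.

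Seed matches of any family were also less frequent. A 7mer or 8mer match to 1 of the 31 annotated families lay in 42.7% of member peaks and in 60.5% of the peaks of other protein-coding genes, and no match at all was annotated in 26.8% of member peaks, against 16.3%. The pattern was alike in CDS (40.1% against 56.7% with a 7mer or 8mer match) and in the 3′ UTR (47.9% against 65.04%). The deposited conservation score of the matched bases, phyloP, where higher means more conserved, had a median of 1.44 in CDS for members and 1.51 for other genes. In the 3′ UTR the medians were 0.495 and 0.714, and in the 5′ UTR 1.43 (12 matches) and 0.619. These shares and medians compare peaks, which are not independent replicates, and carry no test.

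Summed levels separate the mRNA peaks from the snoRNA and pseudogene peaks. The 211 member peaks outside snoRNAs summed to 1549, 1539, 1522 and 1022 CPM of the library total in KO livers, against 1291, 1579, 1470.5, 1401 and 1481 CPM in WT livers, with an adjusted exact p of 0.849. KO replicate 4 stood below all others. The 28 peaks over snoRNAs summed to 406, 494, 511 and 372 CPM in KO livers, against 304, 323, 398, 314 and 278 CPM in WT livers. WT replicate 3 alone reached into the KO range, and the exact permutation p was 0.0238 (0.0476 adjusted over the 10 sums, and 0.05 within sex). As a share of all protein-coding counts, member peaks, those over snoRNAs included, held 0.250 ± 0.036% in KO and 0.222 ± 0.017% in WT livers. The difference of 0.028 percentage points had an exact permutation p of 0.175, and it is not one of mRNA peaks alone. Without KO replicate 4 the difference was 0.046 points (exact permutation p = 0.0179).

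Pseudogenes named after ribosomal proteins were set beside their parents, because reads of near-identical copies cannot be assigned with certainty and no label or header states the counting rule. The table holds 120 peaks of 73 such names. They summed to 638, 575, 642 and 358 CPM in KO livers, against 822, 993, 762, 815 and 827 CPM in WT livers, without overlap (adjusted exact p = 0.0198). The 9 of these peaks with a miR-122-5p or miR-122-5p-B match summed to 33.6 ± 18.9 CPM in KO and 278 ± 66.5 CPM in WT livers. The 111 without one summed to 519 ± 121 CPM in KO and 566 ± 45.7 CPM in WT livers, with an adjusted exact p of 0.626.

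Pseudogenes of Rpl35a and Rps25 held fewer counts in KO livers, here summed over 4 KO and 5 WT libraries and given with no test. Rpl35a-ps2, Rpl35a-ps3, Rpl35a-ps4 and Rpl35a-ps6 together held 57 counts in KO and 804 counts in WT livers, many more than the parent peak. Rps25-ps1 held 59 in KO and 230 in WT livers. In Rpl14-ps1 the fullest peak held 41 counts in KO and 275 in WT livers, while its 4 other peaks together held 106 in KO and 75 in WT livers. Both Rpl15 pseudogenes had more reads in KO livers, at 67 counts against 29 in WT livers. With the pseudogene peaks added to the members they are named after (113 peaks, 5462 counts, 37 genes), 5 of 56 genes tested were lower and 6 were higher in KO livers.

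**Figure D5:**
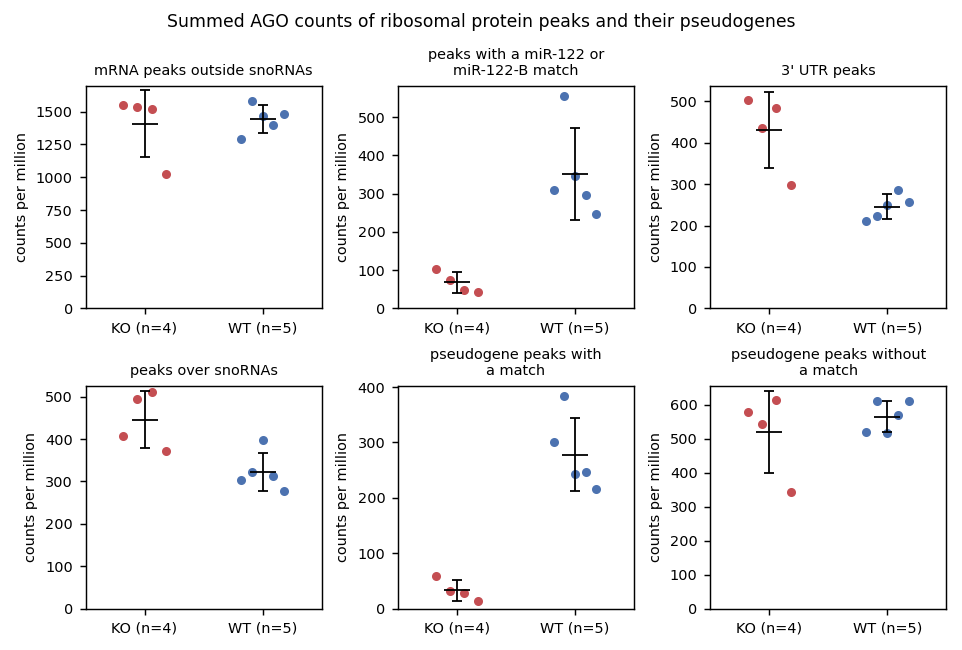
Summed CPM, over the library total, of 6 groups of peaks, with 1 point per library, KO (red) left of WT (blue), and the mean with its SD in black. The peaks with a miR-122 match (ribosomal protein genes 68.0 in KO against 350.99 in WT livers, pseudogenes 33.6 against 278) and the 3′ UTR peaks separate the groups, while the mRNA peaks as a whole overlap (1408 against 1444), with KO replicate 4 lowest at 1022. The match peaks of ribosomal protein genes include a peak over a snoRNA.

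The promoter table bears on the 5′ TOP motif, which was looked for as a C at the annotated start followed by at least 4 pyrimidines (C or T), on the transcribed strand. It was found in 10 of the 57 members that matched RefSeq's promoter table (17.5%), against 2.98% of 26968 other genes, as a description of annotated starts only.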

How the data were processed

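AGO CLIP-seq of 9 mouse livers was analysed from a table of 143524 rows for 92645 unique peaks of median width 70 bases. The deposited values were read counts per peak and library, not normalized, per the file headers, and the authors gave each seed match a conservation score, its mean phyloP. Bowtie2 and mm10 are named in the submitters' processing notes; peak caller, duplicate treatment and counting rule stand in no label or header. Peak classes and the seed matches (31 microRNA families) are the authors', and their -B class is undefined. A floor of 3 counts was worth 2.56 to 6.73 CPM of the library total over all peaks, and covers counting error only, since the libraries were amplified.

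Counts were summed per gene, per gene and mRNA part, and per peak, and every table was fitted whole with edgeR 4.0.16 in R 4.3.3 (quasi-likelihood test, genotype and sex as terms, filterByExpr, TMM factors) over all 9 libraries. SE were derived from the test statistic. On simulated counts for 8554 genes, the gene fit recovered 84% of genes with a log2 change of -2, 92% at 2, 16% at -1 and 18% at 1. The simulation gave all genes the same dispersion and changed 50 genes at each of these values. In the data 45% of genes passed the threshold, so these shares do not give the power of the fit on the data. DESeq2 1.42.0, other scalings, filters, peak subsets and left-out libraries were alternatives. Shares and sums per library were compared by exact permutation. Of the 84 symbols, 83 matched RefSeq (GRCm38.p6). Libraries of a group all differed beyond counting noise (3.07 to 13.3 in chi-square over its degrees of freedom). The same replicate numbers in KO and WT did not pair the libraries (correlations of deviations -0.094 to 0.0042).

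The members, gene lists, marker lists and tests were chosen with earlier results of these data known. Named were the members past the threshold with the smallest p (genes up to 10, peaks up to 5, gene parts up to 4 per direction), the 8 with the highest WT level per kilobase, members with a miR-122 7mer or 8mer match, and a list of members with known roles, paralogues and constituents outside the name rule; the results of some members among these are not reported here, while counts and sums over the members hold them. Alternatives without snoRNA peaks and with peaks inside the own RefSeq gene only were added after seeing the data.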

Additional observations from a re-analysis of the deposited data

Results flagged for a closer look

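Single libraries stood apart from the rest of their group in 9 of 86 sets of 4 or 5 values checked with Dixon's test, at a level of 0.05 by which chance alone marks some sets. The causes were not tested.

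KO replicate 4 was lowest for the ribosomal protein share of protein-coding counts (0.196% against 0.262% to 0.273% in the other KO livers). It was also lowest for the summed member peaks outside snoRNAs (1022 CPM) and for those without a miR-122 match (1004 CPM). The same library has the highest neuron marker sum, 10255 CPM. KO replicate 1 was highest among the KO livers for Rpl6, at 26.2 CPM as a gene and 33.7 CPM in its CDS.

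WT replicate 2, the library with the lowest total of 445912 counts, was highest among the WT livers for Rpl6, at 406 CPM as a gene, 495 CPM in its CDS and 341 CPM in its main peak. It was also highest for the summed peaks of ribosomal protein pseudogenes, at 993 CPM.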

How the results depend on the processing

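Over 1182 recomputed values, 1091 kept their direction and their side of the threshold or moved by less than the limit set for them. For single genes, gene parts and peaks, 894 values over 49 results were recomputed, of which 832 stayed, 51 lost the threshold, 11 gained it and 0 turned sign. The lower genes Rpl6, Rps25 and Rpl35a kept their direction in every alternative in which they were tested, and the calls of Rpl6 and Rps25 also held. With 3′ UTR peaks alone, 0 of 8 member genes tested were lower; Rpl6, Rps25 and Rpl35a hold no such peak. The 5 higher genes became 2 with scaling factors from genes without a miR-122 match, and 2 without peaks that hold such a match. With 3′ UTR peaks alone 2 of the 8 tested were higher, and with CDS peaks alone 3 of 23 tested, of which Rps29 is 1 of those 5; the other 4 had too few CDS reads or none. Under that scaling the gene parts were 6 lower and 2 higher, and the higher peaks were 3; upper quartile factors gave 10 higher peaks, and no filter on low counts gave 11 lower peaks. Leaving out 1 library gave 3 to 4 lower and 3 to 11 higher genes, 3 to 4 lower and 3 to 10 higher gene parts, and 4 to 8 lower and 3 to 12 higher peaks; the highest numbers of higher genes, parts and peaks came without KO replicate 4. The difference in the share of protein-coding counts, with snoRNA peaks included, ran from 0.020 to 0.046 points over the same fits. Over them the excess change of the CDS to 3′ UTR ratio ran from -0.41 to -0.18. That excess was 0.0057 (exact permutation p = 0.968) without peaks with a miR-122 match and 0.115 (exact permutation p = 0.246) as a mean over genes with 50 or more counts. The member median minus the median of all rows, 0.23 for genes, was -0.0103 without peaks with a miR-122 match, and for peaks it was -0.018 with no filter on low counts. The replicate numbers do not pair the libraries. With a replicate block, 4 genes were lower and 5 higher, 3 gene parts lower and 5 higher, and 6 peaks lower and 5 higher. The causes of these shifts were not tested. At this depth, 40 of the 84 genes and all 5′ UTR rows could not be tested.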
